A study of Homo sapiens with 6 samples.

Results

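Immediate-early genes are switched on within minutes when a neuron fires, before any new protein has been made. Their products include transcription factors of the FOS, JUN, EGR and NR4A families, which pass the signal on to later genes, and ARC, a protein that acts at the synapse. Serum response factor and its partners, and CREB with its coactivators, bind the promoters and enhancers of many of them and carry the calcium signal to the DNA. The 10 genes FOS, FOSB, FOSL2, JUN, JUNB, EGR1, EGR3, ARC, NPAS4 and NR4A1 were examined here, out of 19974 protein-coding genes. They were taken by name, and every CTCF or H3K27ac peak within 50 kb of each RefSeq gene interval was collected. A peak was counted as at the gene when it shared at least 1 bp with that interval, and as flanking otherwise. This gave 28 H3K27ac peaks at the genes and 97 in the flanks, out of 78694 in the genome. For CTCF it gave 13 at the genes and 69 in the flanks, out of 43677.

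All samples were neurons made by way of neural progenitors from KOLF2.1J, a widely used human iPSC line, and so carry the genetic background of 1 line. No stimulation, silencing or other treatment is named in the labels. The series held 2 libraries with an antibody to CTCF, which binds DNA at the anchors of chromatin loops, 2 with an antibody to H3K27ac, the histone mark of active promoters and enhancers, and 2 of input chromatin. Each antibody had 1 deposited peak list for both of its replicates, so no spread between replicates, no test of a comparison and no sequencing depth stands behind any value below. The q-values quoted are the authors' own for single peaks against background. H3K27ac values were read as the fold enrichment of a peak over background, from the values and layout of the list. CTCF values are a peak signal whose scale is not stated. The 2 scales were not compared with each other.

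The label of the cells was checked with H3K27ac at marker genes. All 12 neuron markers had a peak at the gene (median of the highest fold enrichment 15.4), and so did all 8 neural progenitor markers (median 19.7). A peak was listed at 5 of 6 astrocyte markers (median 9.32, with GFAP at 2.75), with none at AQP4. It was listed at 2 of 6 pluripotency markers (median 0), with none at POU5F1, NANOG, UTF1 or ZFP42. Of 8 liver and muscle markers, 2 had a peak (median 0), MYH7 with 20.4 and CKM with 2.29. Over all protein-coding genes the share with a peak at the gene was 69% and the median 8.64, with genes without a peak taken as 0. The neuron markers are long genes, with a median of 93.3 kb against 24.2 kb over all genes and 5.74 kb for the progenitor markers. Longer genes have more room for a peak. Progenitor markers and some astrocyte markers were thus acetylated beside neuron markers. The part of progenitor cells, astrocytes or other cells in the values below was not tested.

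Of the promoters, 5 are shown first, because the peaks described below lie on them in different ways. Each line gives the 250 bases before the start from RefSeq (GRCh38.p14), read 5′ to 3′ on the strand of the gene. The windows are chr14:75278578-75278827 (FOS, plus strand), chr19:45467746-45467995 (FOSB, plus strand), chr1:58784048-58784297 (JUN, minus strand), chr5:138465229-138465478 (EGR1, plus strand) and chr11:66420754-66421003 (NPAS4, plus strand). Capitals mark the letters of the motifs searched, and CGTCA in capitals is TGACG on the opposite strand.
FOS: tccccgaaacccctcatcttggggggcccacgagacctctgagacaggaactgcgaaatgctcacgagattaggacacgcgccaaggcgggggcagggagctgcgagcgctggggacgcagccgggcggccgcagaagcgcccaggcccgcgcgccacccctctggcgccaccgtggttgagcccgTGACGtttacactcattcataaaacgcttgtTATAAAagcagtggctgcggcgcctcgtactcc
FOSB: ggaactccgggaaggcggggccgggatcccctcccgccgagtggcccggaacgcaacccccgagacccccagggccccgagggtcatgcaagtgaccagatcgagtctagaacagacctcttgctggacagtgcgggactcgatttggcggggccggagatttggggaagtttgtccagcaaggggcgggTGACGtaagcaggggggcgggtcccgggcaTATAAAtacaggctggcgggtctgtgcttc
JUN: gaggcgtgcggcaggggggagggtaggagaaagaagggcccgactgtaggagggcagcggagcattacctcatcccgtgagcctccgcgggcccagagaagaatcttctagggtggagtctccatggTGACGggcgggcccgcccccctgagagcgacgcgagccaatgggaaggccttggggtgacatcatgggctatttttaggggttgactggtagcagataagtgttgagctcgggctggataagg
EGR1: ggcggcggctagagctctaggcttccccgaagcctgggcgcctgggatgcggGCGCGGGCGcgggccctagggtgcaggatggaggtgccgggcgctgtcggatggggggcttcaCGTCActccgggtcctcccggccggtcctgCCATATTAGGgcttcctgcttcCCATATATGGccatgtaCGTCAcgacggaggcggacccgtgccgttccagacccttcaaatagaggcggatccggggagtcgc
NPAS4: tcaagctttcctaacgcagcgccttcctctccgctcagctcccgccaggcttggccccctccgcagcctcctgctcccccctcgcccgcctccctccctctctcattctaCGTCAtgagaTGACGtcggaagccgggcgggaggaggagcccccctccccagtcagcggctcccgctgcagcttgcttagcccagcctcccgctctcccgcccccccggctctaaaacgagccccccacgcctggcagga

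The motifs were searched on both strands in these 250 bases for the 8 genes in the promoter table. EGR3 and ARC are not in it, and NPAS4 and NR4A1 have 2 windows each, those of NPAS4 overlapping. The short core of the cAMP response element, TGACG, to which CREB family proteins bind, was present in 8 of the 10 windows, covering FOS, FOSB, FOSL2, JUN, JUNB, EGR1 and NPAS4. It was present in 21.2% of all 35116 promoter windows and in 30.2% of the protein-coding windows that overlap an H3K27ac peak. The full palindrome TGACGTCA, which contains TGACG, was in none of the 10 windows. It was in 1.65% of all windows and 2.86% of the acetylated protein-coding windows just defined. The CArG box, the core of the serum response element (CC and GG around 6 bases that are each A or T), occurred at 2 places in EGR1, as CCATATTAGG from -105 to -96 and CCATATATGG from -83 to -74 relative to the start. The other windows of these genes held no CArG box, and sequence beyond the 250 bases was not searched. One was present in 1.16% of all windows and 1.01% of the acetylated ones. TATAAA, the letters of the TATA box, stood from -33 to -28 in FOS, from -30 to -25 in FOSB and from -31 to -26 in JUNB. It was in 10.7% of all windows and 4.74% of the acetylated ones. The EGR motif GCGNGGGCG was found in EGR1 only among these genes (8.41% of all windows, 13.9% of the acetylated ones). The AP-1 motif TGANTCA was in none (6.57% and 3.38%). These are matches of letters and not measured binding.

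H3K27ac was listed at 9 of the 10 genes, against the 69% of all protein-coding genes and 57.6% of the 12161 that are no longer than NR4A1, the longest of the 10. EGR3 was the gene without a peak in its interval. With 2 kb added on either side all 10 genes had a peak, against 71.7% of all genes. The highest fold enrichment at the gene had a median of 24.5 over the 10 genes, with EGR3 taken as 0, against 8.64 over all protein-coding genes treated in the same way. A peak from the top decile of the list, which means a fold enrichment of at least 16.3, was found at 6 genes, against 30.9% of all genes and 24.7% of those no longer than NR4A1. The 6 were FOS, FOSB, FOSL2, JUN, EGR1 and NPAS4. Within 2 kb ARC and JUNB joined them, which made 8 genes against 34.6%. These values depended on how a peak was assigned. When the summit had to lie inside the gene, 7 genes had a peak against 64.4% of all genes, the median was 8.61 against 6.41, and the top decile was reached at 2 genes, JUN and NPAS4, against 24.9%.

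**Figure D1:**
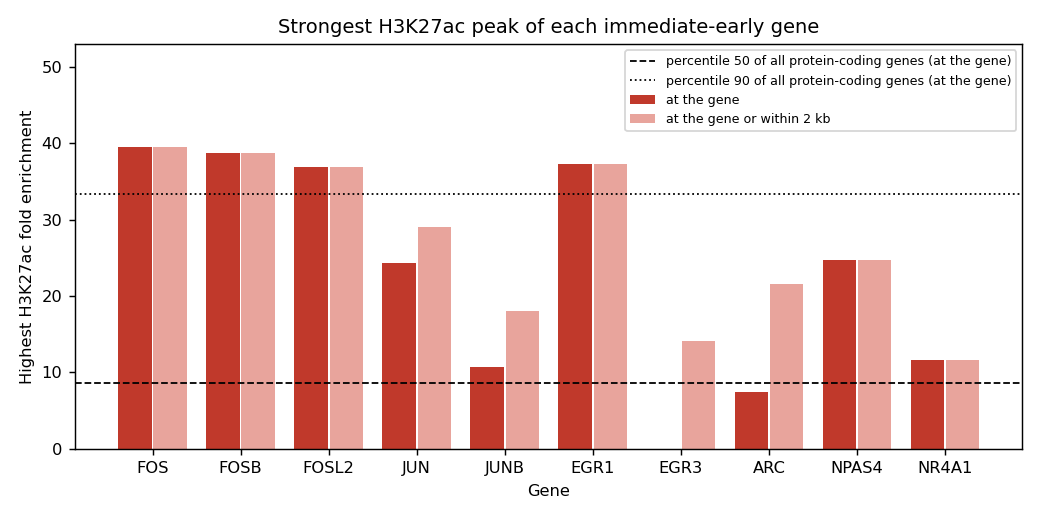
Bars show the highest H3K27ac fold enrichment among peaks at each gene (dark) and among peaks at the gene or within 2 kb (light), from 1 list for both replicates. FOS, FOSB, FOSL2 and EGR1 stand above percentile 90 of all protein-coding genes (33.4, dotted), JUN, NPAS4, JUNB and NR4A1 lie between it and the median (8.64, dashed), and EGR3 and ARC rise above the median only with the 2 kb added.

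FOS encodes a protein that pairs with JUN proteins to form the classical AP-1 dimer. The gene runs from 75278828 to 75282230 on chromosome 14. Its strongest H3K27ac peak ran from 75278479 to 75280468, with a fold enrichment of 39.6 at percentile 98.4 of the list and a −log10 q of 202. The summit lay at -185 bp from the start, and the peak covered the whole promoter window of 300 bp. A weaker peak in the gene had a fold enrichment of 3.96. Including its neighbours with gaps of at most 500 bp, the run at FOS held 4 peaks and spanned 4.49 kb.

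FOSB encodes another AP-1 subunit, whose truncated form builds up in neurons under repeated stimulation. It runs from 45467996 to 45475179 on chromosome 19. Its strongest peak, from 45467714 to 45468011, had a fold enrichment of 38.7 but a width of only 298 bp, against 1990 bp at FOS. Its summit lay at -139 bp from the start. The next in strength in the gene had fold enrichments of 9.76 and 6.51, and the remaining 2 had 4.50 and 3.88. The strongest peak at FOSB was thus about as high as that at FOS and far narrower. With its neighbours joined over gaps of at most 500 bp, the run at FOSB held 6 peaks and spanned 2.61 kb, against 4.49 kb at FOS.

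FOSL2 encodes Fra-2, a FOS relative that is induced more slowly. The gene runs from 28392858 to 28417317 on chromosome 2. It carried 1 peak, from 28389459 to 28393631, which was 4173 bp wide and had a fold enrichment of 36.9, with the summit at -231 bp from the start. The peak also overlaps the antisense noncoding gene FOSL2-AS1. The flanks were nearly empty: the only other H3K27ac peak within 50 kb lay 49.9 kb upstream, with a fold enrichment of 3.06.

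JUN encodes the main DNA-binding partner of FOS. The gene is on the minus strand of chromosome 1, from 58780791 to 58784047. A peak from 58781675 to 58784076 covered most of the gene and its start, with a width of 2402 bp and a fold enrichment of 24.3. A second from 58784298 to 58785294 lay just upstream, with a fold enrichment of 29.0, over the promoter window of the divergent noncoding gene JUN-DT. Between them was a stretch of 221 bp that no peak covered, from 58784077 to 58784297. It takes up most of the bases printed for JUN above, so that 26.3% of the 300 bp promoter window was inside a peak. In FOS, FOSL2 and EGR1 the window was covered throughout.

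JUNB encodes an AP-1 subunit that is a weaker activator than JUN in many settings. This gene of 1.83 kb, from 12791486 to 12793315 on chromosome 19, lies partly inside the listed interval of HOOK2, so signal there cannot be assigned to JUNB alone. The peaks at the gene had fold enrichments of 10.7 and 6.06. The strongest nearby peaks lay just after the gene, with 17.2 at 8 bp and 18.0 at 418 bp from its end. Before the start, a peak 2316 bp wide had 10.8. The run of 6 peaks around JUNB spanned 5.78 kb, the longest of the 10 genes, and none of its values reached those at the starts of FOS, FOSB or JUN.

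**Figure D2:**
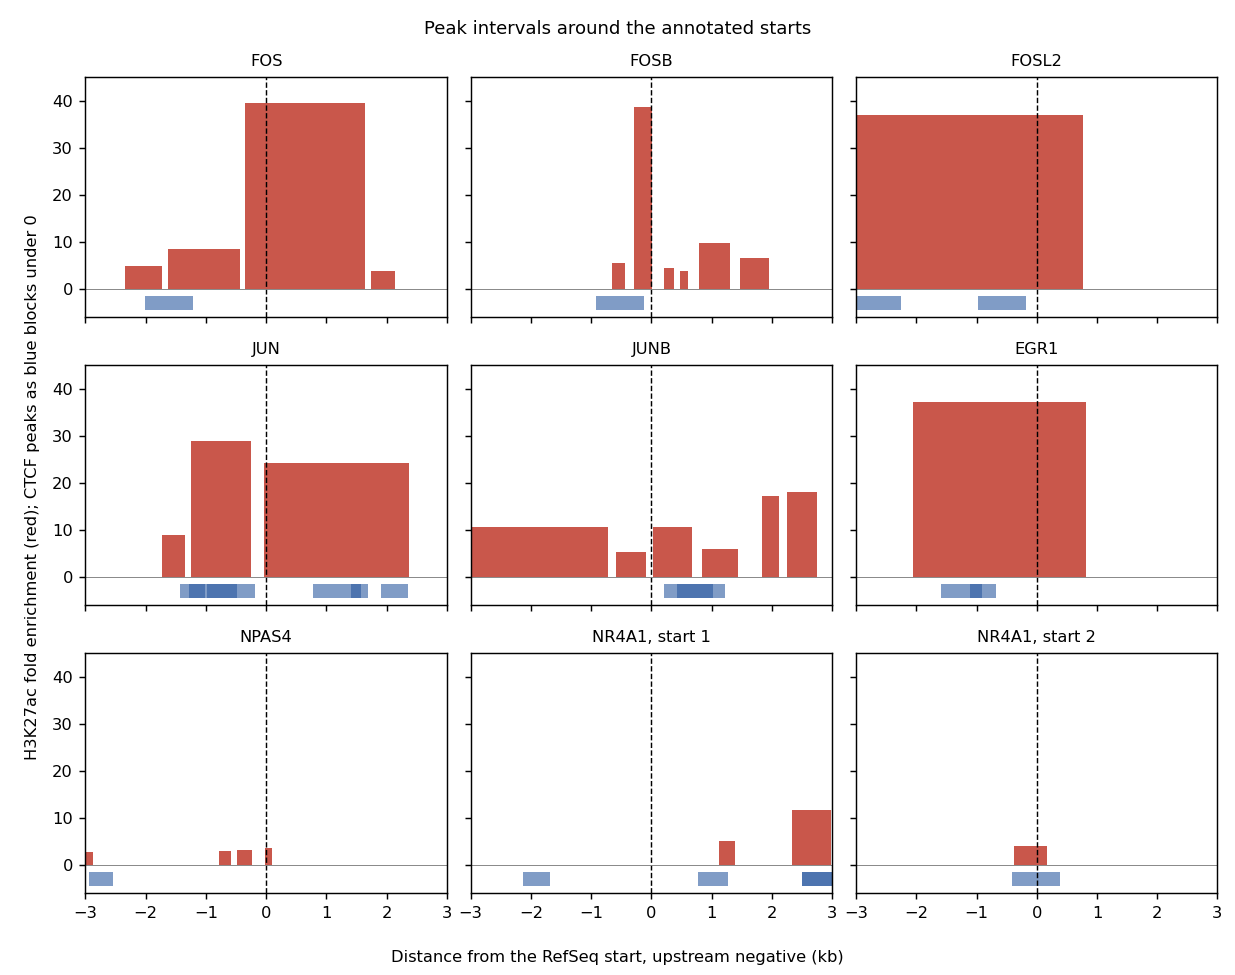
Panels show peak intervals within 3 kb of the RefSeq starts of 8 genes (dashed line, upstream to the left), with H3K27ac as red blocks whose height is the fold enrichment and CTCF as blue blocks of fixed height under 0. FOSL2 and EGR1 have 1 broad block across the start, FOSB a narrow one, JUN a gap just upstream of the start between 2 strong blocks, and NPAS4 and the second start of NR4A1 only low blocks.

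EGR1 encodes a zinc finger factor widely used as a marker of neuronal activity. It runs from 138465479 to 138469303 on chromosome 5. A single peak from 138463425 to 138466291 lay across the start, with a width of 2867 bp and a fold enrichment of 37.3. Its summit lay at -607 bp from the start, beyond the bases printed above, and the peak covered both CArG boxes of that sequence.

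EGR3, a relative of EGR1, runs from 22687659 to 22693480 on chromosome 8. It had no peak inside its interval. The nearest peak began 184 bp beyond its higher-coordinate end, with a fold enrichment of 7.59. A wider one of 1936 bp followed from 22694159 to 22696094, with 14.1 at percentile 87.7, and overlapped the noncoding gene LOC105379321. This was the lowest value within 2 kb among the transcription factors of the FOS, JUN and EGR families examined.

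ARC, whose RNA is carried to active dendrites, runs from 142611049 to 142614479 on chromosome 8. The peak inside the gene, from 142614067 to 142614460, had a fold enrichment of 7.46. A stronger peak with 21.6 began 161 bp beyond the same end of the gene and ran from 142614640 to 142616069. On the other side, a peak of 10.9 lay 1319 bp from the gene, and one of 8.20 lay 10.8 kb away. As at EGR3, most of the H3K27ac next to ARC therefore lay just outside the annotated interval.

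NPAS4 encodes a transcription factor that is expressed mainly in neurons and induced by calcium entry. Its RefSeq interval, from 66409158 to 66426707 on chromosome 11, begins well before the starts of the promoter table. Of 7 H3K27ac peaks at the gene, the strongest ran from 66408598 to 66409877 over the outer end, with a fold enrichment of 24.7 at percentile 95.1. Its summit lay 11.6 kb upstream of the first of the tabulated starts. At those starts the peaks were weak, with fold enrichments of 3.23 (percentile 15.9) and 3.65 (percentile 27.2). The next strongest after the outer peak had 5.16 and 4.95, and the remaining 4 ranged from 2.79 to 3.65. At its tabulated starts NPAS4 thus stood far below FOS, FOSB and EGR1.

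NR4A1 encodes an orphan nuclear receptor induced by activity and by growth factors. The gene spans 36.7 kb, from 52022832 to 52059503 on chromosome 12. It had the most H3K27ac peaks of the 10 genes (8), all of modest height. The strongest ran from 52025165 to 52025807, with a fold enrichment of 11.6 at percentile 83.8, followed by 8.46 and 8.18. The other 5 ranged from 3.72 to 5.25, and 6 of the 8 lie in a stretch shared with the noncoding gene LOC124902934. No H3K27ac peak met the first promoter window (52022582 to 52022881), and the second (52037465 to 52037764) was covered by a peak of 4.06.

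Over the 8 genes with a promoter window, every gene had an H3K27ac peak in at least 1 window, against 61.3% of protein-coding genes. The highest fold enrichment in a window was 39.6 for FOS, 38.7 for FOSB, 37.3 for EGR1, 36.9 for FOSL2 and 24.3 for JUN. It was 10.7 for JUNB, 4.06 for NR4A1 and 3.65 for NPAS4. With 1 list there is no error by which neighbours in this order could be told apart. When the summit had to lie in the window, the count was 4 genes (FOS, FOSB, FOSL2 and NPAS4), against 17.9% of protein-coding genes. Of the 10 windows, 4 were covered throughout by peaks and 1 was not covered, against 26.8% and 42.1% of 22156 protein-coding windows.

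The flanks were then examined. All 10 genes had at least 1 flanking H3K27ac peak, against 81.6% of protein-coding genes. The number of flanking peaks per gene was 13 at FOS, 18 at FOSB, 1 at FOSL2, 7 at JUN, 19 at JUNB, 10 at EGR1, 4 at EGR3, 6 at ARC, 8 at NPAS4 and 11 at NR4A1. The median was 9, against 3 over all protein-coding genes and 4 over those no longer than NR4A1. JUNB and FOSB, with the highest counts, had 8 and 4 other protein-coding genes within 50 kb, against a median of 2 over all genes. FOS, FOSL2 and JUN, with 13, 1 and 7 flanking peaks, had no other protein-coding gene in the window. The part of neighbouring genes in these counts was not tested. Of the 97 flanking peaks, 14 lay within 2 kb of the gene, so flanking does not mean distant. By position, 17 met a promoter window of another gene and 1 met that of JUNB itself. Another 45 lay inside the interval of another gene and 34 overlapped no gene. EGR3 and ARC are not in the promoter table, so a peak on their own promoters could not be classed as such. The median fold enrichment of the 97 was 5.53, close to the 5.66 of the 28 peaks at the genes. In the top decile of the list were 11 of the 97 and 6 of the 28, against 11.3% of all H3K27ac peaks within 50 kb of a protein-coding gene.

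FOS had the richest flanks outside genes, with 10 peaks that overlapped no gene. The strongest ran from 75236618 to 75238507, 40.3 kb upstream, with a fold enrichment of 35.2 at percentile 97.8, close to the 39.6 at the start. Another, from 75258163 to 75259775 and 19.1 kb upstream, had 15.8. Downstream, a peak of 30.4 lay 11.3 kb away at the promoter window of LINC01220, and peaks of 13.8 and 12.4 lay 28.0 and 28.6 kb away. The nearest flanking peak, 437 bp upstream, had 8.46. H3K27ac in the FOS window covered 13.8 kb, at percentile 94.2 of all protein-coding genes. Enhancers on both sides of FOS are known from stimulated mouse neurons, and whether these peaks are their human counterparts was not tested.

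At EGR1 the strongest flanking peak ran from 138447993 to 138450122, 15.4 kb upstream and in no gene, with a fold enrichment of 18.6 and a width of 2130 bp. The nearest, 9.91 kb upstream, had 6.13. At FOSB the strongest ran from 45478347 to 45479129, 3.17 kb downstream, with 26.9. It overlapped TRU-TCA1-1, a selenocysteine transfer RNA gene, while the nearest peak, 442 bp upstream, had 5.65. At JUN a peak of 14.7 lay 6.31 kb downstream in no gene, and a peak of 10.6 lay 32.1 kb upstream inside JUN-DT. The strongest flanking peaks of NPAS4 and NR4A1 lay at promoter windows of neighbours. That of NPAS4 was at MRPL11, with 23.7 at 11.6 kb, and that of NR4A1 at ATG101, with 66.3 at 9.70 kb. The flanking peak nearest to NR4A1, 2095 bp downstream, had 3.24. The peak at ATG101 thus stood well above every peak inside NR4A1. Flanking peaks that overlapped no gene numbered 6 each at ARC and EGR1, 3 at JUNB, 2 each at FOSB, JUN, EGR3 and NR4A1, 1 at FOSL2 and 0 at NPAS4. These counts include peaks next to a gene end, such as those 161 bp from ARC, 184 bp from EGR3 and 8 bp from JUNB.

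**Figure D3:**
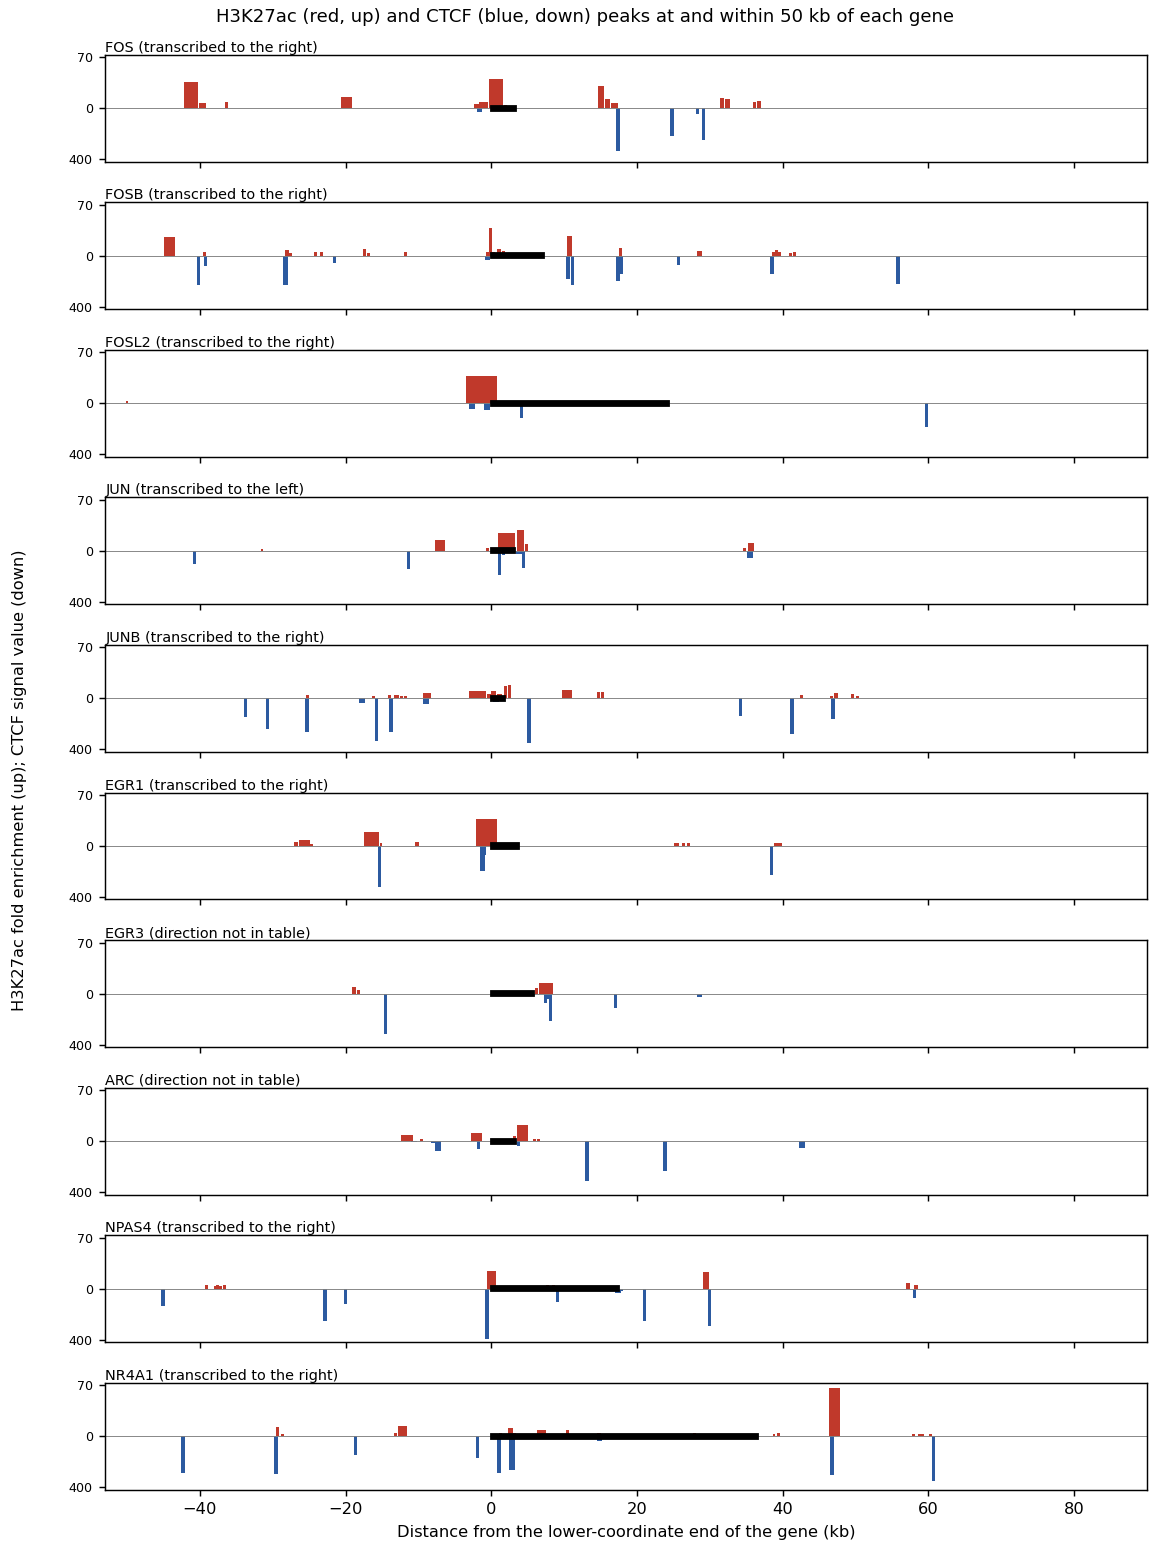
Each row plots the peaks at and within 50 kb of 1 gene (black bar) by distance in kb from its lower-coordinate end, with H3K27ac fold enrichment upward and CTCF signal downward, and with bars drawn at least 0.4 kb wide. FOS and EGR1 have strong H3K27ac peaks away from the gene that overlap no other gene, and FOSB and NPAS4 have strong ones at other genes. FOSL2 has nearly no flanking H3K27ac, and the tallest bar in the row of NR4A1 is at ATG101.

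CTCF was listed at 5 of the 10 genes, against 55.6% of all protein-coding genes and 40.3% of those no longer than NR4A1. The 5 were FOSL2, JUN, JUNB, NPAS4 and NR4A1. With 2 kb added on either side, all 10 genes had a CTCF peak, against 62.9%. At each of the 10 at least 1 of these overlapped an H3K27ac peak, against 37.7% of all genes. Of those no longer than NR4A1 the share was 30.3%. At FOS (31.8), FOSB (35.5), FOSL2 (52.0) and JUNB (27.9 and 21.4) the only such entries were 800 bp wide. Their signals were below the median of 91.0 in the whole list, where 33.4% of entries have this width. The count within 2 kb was not repeated without this width. Inside the gene interval alone, such a doubly marked CTCF peak was found at JUN, JUNB, NPAS4 and NR4A1, which is 4 genes, against 31.4% of all genes and 23.5% of those no longer than NR4A1. In the promoter windows, CTCF was listed for FOSB, FOSL2, JUN and NR4A1, which is 4 of the 8 genes with a window, against 24.6%. All 4 of these entries were 800 bp wide, with weak signals of 35.5, 52.0, 26.0 and 36.8 in that order. The share of 24.6% was not repeated without this width. In all, 46 of the 82 CTCF entries overlapped H3K27ac, which is 56.1% (95% Wilson interval 45.3 to 66.3%, counting error only), against 30.9% of the CTCF peaks within 50 kb of any protein-coding gene. The 82 entries come from 10 windows and hold 80 distinct positions, so they are not independent. The Wilson interval is therefore no test against the 30.9%. H3K27ac covered a median of 7.65 kb of the windows, against 3.38 kb over all protein-coding genes. Its part in this share was not tested.

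Many of the CTCF peaks at the genes were weak, with a median signal of 36.8 against 91.0 in the whole list, while the flanking ones had a median of 146. Of the 13 at the genes, 6 had the width of 800 bp that recurs in the list, as did 33.4% of the whole list. A q-value above 0.05 was given to 3 of the 13 and to 4.92% of the list. NR4A1 held the strongest, with signals of 292 from 52023597 to 52024109 and of 265 and 162 for 2 entries on the same interval from 52025326 to 52026084. All of these overlapped H3K27ac. A weak one of 36.8 lay on the second start of NR4A1, and the nearest outside the gene, 1690 bp upstream, had 167 and met no H3K27ac. JUN held a peak of 186 from 58781691 to 58782145 inside its H3K27ac peak, and weaker ones of 34.7 and 13.6. FOSL2 held 1 of 116 that met no H3K27ac peak. JUNB held only weak entries of 27.9 and 21.4, and NPAS4 had peaks of 107, 30.2 and 15.9.

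Just outside the intervals, NPAS4 had the highest CTCF signal of the whole set. It was 396 at percentile 99.8, from 66408341 to 66408890, 268 bp before the outer end of the gene, and it overlapped the strong outer H3K27ac peak. At EGR1, CTCF peaks of 197 and 69.6 lay 917 and 674 bp before the gene, inside the broad H3K27ac peak. At EGR3, peaks of 75.2, 43.7 and 213 lay between 1469 and 2102 bp beyond the higher-coordinate end, inside the wider H3K27ac peak there. Weak CTCF entries of 31.8, 35.5, 52.0, 26.0 and 34.1 stood closest to FOS, FOSB, FOSL2, JUN and ARC, between 121 and 1220 bp from the gene, and each met H3K27ac.

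All 10 genes had flanking CTCF peaks, against 86.1% of protein-coding genes. The median was 6, against 2 over all protein-coding genes and 3 over those no longer than NR4A1. The counts were 13 at FOSB, 11 at JUNB, 8 at ARC, 7 at NPAS4, 6 each at JUN, EGR3 and NR4A1, 5 at FOS, 4 at EGR1 and 3 at FOSL2. Some entries overlap each other, and merging them gave 61 flanking peaks in place of 69. The part of neighbouring genes in these counts was not tested. The strongest flanking peak at FOS had a signal of 337, 13.8 kb downstream in LINC01220, beside H3K27ac. No CTCF peak was listed between FOS and its peak of H3K27ac at 40.3 kb upstream apart from the weak one at 1220 bp. At EGR1 the strongest, 321, lay 15.1 kb upstream and overlapped the flanking H3K27ac peak there. EGR3 had 320 at 14.3 kb on the lower-coordinate side, and ARC had 312 at 9.47 kb on the higher-coordinate side, both without H3K27ac. JUNB had 354 at 3.13 kb downstream in PRDX2, and NR4A1 had 353 at 23.8 kb downstream in SMIM41. FOSB, JUN and FOSL2 reached 233, 146 and 186.

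The rest of the activity-induced programme was described with 3 lists. Of 22 other immediate-early genes, 20 had H3K27ac at the gene, against 69% of all protein-coding genes, with a median of the highest fold enrichment of 18.8 (24.5 for the 10 genes above, 8.64 for all protein-coding genes). The highest were CCN1, a secreted matrix protein (46.6), NR4A3, a relative of NR4A1 (45.5), and TRIB1, a pseudokinase (33.5). FOSL1 and EGR4 had none at the gene, and FOSL1 had 19.6 within 2 kb. Of 18 genes induced later, 15 had a peak (69% of all genes), with a median of 7.71, below that of all genes. BDNF, the neurotrophin, had 49.4 and HOMER1, a synaptic scaffold, had 31.0, followed by NRP1, a guidance receptor. NPTX1, SIK1 and PTGS2 had none. All 15 upstream factors and coactivators had a peak (69% of all genes), with a median of 26.8, led by ATF1 (57.6), MEF2D (47.2) and CREB1 (41.9). The lists differ in gene length, with medians of 4.82, 7.06, 10.9 and 87.5 kb in the order given, and longer genes have more room for a peak.

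**Figure D4:**
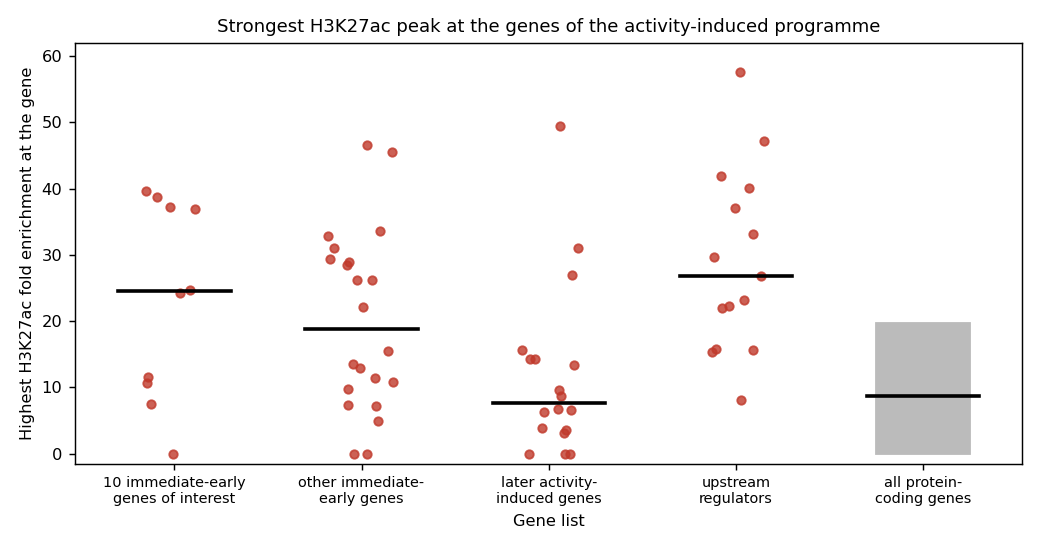
Points give the highest H3K27ac fold enrichment at each gene of 4 lists (0 where no peak is listed), black lines give medians, and the grey box spans the quartiles of all protein-coding genes (0 to 19.7). The medians are 24.5, 18.8, 7.71, 26.8 and 8.64 from left to right.

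CTCF was listed at 18 of the 22 other immediate-early genes, at 13 of the 18 later genes and at 11 of the 15 upstream factors, against 55.6% of all protein-coding genes. A CTCF peak at the gene that overlapped H3K27ac was found at 14, 9 and 9 of them, against 31.4%. Within 2 kb, CTCF was present at 19, 17 and 12, against 62.9%.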

How the data were processed

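ChIP-seq for CTCF and H3K27ac was carried out on 2 libraries each, with 2 input libraries. The authors deposited 1 peak list per antibody, of 10 columns and covering both replicates; single replicates and input were not analysed here. The submitters' processing notes name hg38 and cutadapt 1.16; the aligner, the peak caller and its settings are not given in the sources used here. The deposited CTCF column is a peak signal on an unstated scale. The deposited H3K27ac column was read as a ratio (fold enrichment) from its values and layout. The −log10 q values and the score of at most 1000 are also the authors'; the CTCF −log10 q is limited to 4.78. There were 0 columns of single samples, and depth is unknown, so no count test was used and no comparison has a p-value.

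Gene intervals, names and promoter windows (250 bp before to 50 bp after a start) come from RefSeq, GRCh38.p14, with 19974 protein-coding genes on 23 chromosomes. All 10 genes were matched, 8 of them in the promoter table. Peaks were counted with Python 3.11.15, numpy 2.4.6 and pandas 2.3.3 at an overlap of at least 1 bp, by functions tested on simulated intervals. Positions are 1-based. Genes without a peak entered medians as 0. Genes were described beside the same measure over all protein-coding genes, and beside those no longer than the longest of the 10.

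The 10 genes and all lists were chosen with earlier results of these data known. The named peaks are all those at a gene where there are at most 4, otherwise the 3 strongest, with the strongest and the nearest in the flanks. Of each other list the 3 highest genes and up to 4 without a peak are named. Other peaks named, the top decile, the joining of peaks over gaps of at most 500 bp and the coverage of windows were chosen after values were seen. Alternatives were the strongest 50% of each list, q under 0.05, summits in place of overlap, 2 kb added to genes, flanks of 20 and 100 kb, CTCF without the width of 800 bp, merged CTCF entries and, for the top decile, percentiles 80 and 95.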

Additional observations from a re-analysis of the deposited data

How the results depend on the processing

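No paired analysis was possible because each list covers both replicates together, and leaving out a replicate was not possible for the same reason. Of 49 alternatives, 33 left the value within its 95% Wilson interval (numbers of genes) or within 1.5 times (numbers of peaks), and 16 moved it; 4 of the alternatives were chosen after seeing the data. With 8 or 10 genes a Wilson interval is wide, so lying within it says little about stability. In the strongest 50% of peaks, genes with a marked promoter window went from 8 to 6. Genes with CTCF on H3K27ac went from 4 to 2 in that setting, and both changes counted as within the interval. The median fold enrichment has no interval, so any change counts as a move. With 2 kb added, genes with H3K27ac went from 9 to 10, the median from 24.5 to 26.8 and genes with CTCF from 5 to 10. CTCF peaks at the genes went from 13 to 27 and genes with CTCF on H3K27ac from 4 to 10. At FOS, FOSB and FOSL2 the last of these gains came only from CTCF entries of 800 bp. With the summit inside the gene, the median was 8.61 and genes in the top decile went from 6 to 2. Summits of the strongest peaks at FOS, FOSB, FOSL2 and EGR1 lie before the start. With the summit inside the promoter window, genes with a marked window went from 8 to 4. The summits at FOS, FOSB and FOSL2 lie inside that window, and that at EGR1, at -607 bp, does not. In the strongest 50% of peaks, flanking H3K27ac went from 97 to 59, CTCF at the genes to 6 and flanking CTCF from 69 to 45. CTCF at the genes was 7 without the width of 800 bp. Flanks of 20 and 100 kb gave 48 and 173 H3K27ac and 40 and 113 CTCF peaks, by construction. Adding 2 kb can only raise values at the genes, and dropping peaks can only lower counts. Requiring the summit inside the gene or promoter window can only lower values there. The direction of these moves was thus fixed by the setting, and what set their size was not tested. Depth is not known, so a gene without a peak is one where none was listed.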
